A study of Mus musculus with 9 samples.

Results

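The collagen genes encode the chains of the collagens, and they were taken as every gene whose mouse symbol is Col, a number, the letter a and a number (such as Col1a1). Of the 18450 genes in the deposited expression table, 43 met this rule. They comprise 10 fibrillar chains, 8 chains of basement membranes and 25 others. Of the 44 symbols of this form in the RefSeq annotation, Col5a2 is not analysed here. RNA was sequenced from the brains of 9 APP/PS1 mice, a model in which transgenes lead to amyloid plaques. There were 3 mice exposed to stress, 3 mice in an enriched environment and 3 mice in a standard environment, the controls. All 9 carry the APP/PS1 genotype, so no group lacks the transgenes, and a treatment field reading standard rearing is the same for every animal, so the group field defines the groups here. The sources used here do not give age, sex, the kind of stress or the promoters of the transgenes. Blood was washed out by perfusion, and the tissue taken for RNA was brain stem plus the anterior part of the brain, per the series' design text. Each library thus mixes several regions, and how much of the meninges stayed attached is not given there.

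Collagens are built from 3 chains wound into a triple helix. Fibrillar collagens form the tensile fibres of the meninges and of the outer vessel wall and are made largely by fibroblasts, whereas type IV collagen forms the sheet-like network of the basement membrane that endothelial cells, pericytes and astrocytes share. Further families coat fibrils, form beaded filaments around cells or span the plasma membrane, and some of these are made by neurons and glia.

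Marker genes of the cells that carry these collagens were detected in every library. CPM, a count scaled by library size, was summed over 15 meningeal fibroblast genes, including Dcn, Lum and Slc6a13. The sums were 307 to 360 in stress, 330 to 436 in enriched and 337 to 408 in control libraries. The same sum over 12 endothelial genes, including Pecam1 and Cldn5, was 209 to 453 in stress, 144 to 274 in enriched and 122 to 186 in control libraries. Libraries held 15851833 to 17213008 estimated counts, so that 1 CPM is worth 15.9 to 16.8 reads, and 38 of the 43 collagens passed the filter on low counts. In bulk tissue, fewer cells of a type and less RNA per cell cannot be told apart. P-values set a difference between groups against the spread of libraries within groups. An animal code in each title is all that the labels say on whether the 9 libraries are separate animals. The codes of all 3 stress mice carry the letter C, those of all 3 enriched mice the letter D, and those of the controls C in 1 mouse and D in 2. The labels do not explain this letter, so between stress and enriched mice the condition and the letter cannot be told apart.

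The start regions of 5 genes named in the comparisons are printed, 3 of them for a marked motif and 2 for a shared start region. Col9a3, which also stands out in the comparisons, is left out because no window was available for it. Each window runs from 250 bases before to 50 after the RefSeq transcription start on GRCm38.p6 and is written 5′ to 3′ on the gene's own strand. Col24a1 lies on the plus strand (chr3:145292222-145292521), and capitals mark a cyclic AMP response element (TGACGTCA) that begins 7 bases before the start. Col6a1 lies on the minus strand (chr10:76725995-76726294), and capitals mark an AP-1 site (TGACTCA). Col8a2 lies on the plus strand (chr4:126286544-126286843), and capitals mark 4 GC boxes (GGGCGG or its reverse complement CCGCCC), the last 2 of which overlap by 2 bases.
Col24a1: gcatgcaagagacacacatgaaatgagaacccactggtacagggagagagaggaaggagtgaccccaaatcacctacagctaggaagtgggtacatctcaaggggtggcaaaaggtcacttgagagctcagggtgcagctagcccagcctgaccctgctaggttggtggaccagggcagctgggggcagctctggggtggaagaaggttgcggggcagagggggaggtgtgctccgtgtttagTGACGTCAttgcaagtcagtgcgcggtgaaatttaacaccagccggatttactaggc
Col6a1: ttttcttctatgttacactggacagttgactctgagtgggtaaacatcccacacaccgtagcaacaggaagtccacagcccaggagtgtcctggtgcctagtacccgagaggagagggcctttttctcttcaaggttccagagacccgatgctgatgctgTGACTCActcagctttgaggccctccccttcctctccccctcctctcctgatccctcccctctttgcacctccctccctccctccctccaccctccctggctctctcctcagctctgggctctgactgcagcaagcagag
Col8a2: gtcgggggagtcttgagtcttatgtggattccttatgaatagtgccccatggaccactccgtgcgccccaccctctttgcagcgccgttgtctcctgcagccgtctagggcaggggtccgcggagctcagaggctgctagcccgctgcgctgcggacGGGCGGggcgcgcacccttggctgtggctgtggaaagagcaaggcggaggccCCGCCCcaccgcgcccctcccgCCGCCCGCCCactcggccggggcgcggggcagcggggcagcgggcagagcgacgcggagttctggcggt
Of 32851 windows of this length over all genes, searched on both strands, 1.79% hold the cyclic AMP response element, 5.20% the AP-1 site and 35.7% the GC box. Among the 35 collagen genes with a window, 1 holds the first, 1 the second and 22 the GC box, and 5 hold a TATA box (TATAAA), which 13.6% of all windows hold. These motifs were chosen after the sequences were seen, and a match describes letters, not a site in use.

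Col4a1 and Col4a2 are transcribed away from each other from a common start region on chromosome 8. The start sites used for their windows lie 21 bases apart, and 78 bases belong to both windows, shown in capitals. The annotated Col4a1 gene extends past the start site of its window, at base 11312826, to base 11312889. Col4a1 is on the minus strand (chr8:11312777-11313076) and Col4a2 on the plus strand (chr8:11312555-11312854).
Col4a1: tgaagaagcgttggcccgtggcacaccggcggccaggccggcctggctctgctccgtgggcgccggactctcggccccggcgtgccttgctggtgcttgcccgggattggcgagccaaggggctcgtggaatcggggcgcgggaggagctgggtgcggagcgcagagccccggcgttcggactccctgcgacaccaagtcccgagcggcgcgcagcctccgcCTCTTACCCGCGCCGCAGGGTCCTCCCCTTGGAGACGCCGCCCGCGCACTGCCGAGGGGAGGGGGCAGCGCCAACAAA
Col4a2: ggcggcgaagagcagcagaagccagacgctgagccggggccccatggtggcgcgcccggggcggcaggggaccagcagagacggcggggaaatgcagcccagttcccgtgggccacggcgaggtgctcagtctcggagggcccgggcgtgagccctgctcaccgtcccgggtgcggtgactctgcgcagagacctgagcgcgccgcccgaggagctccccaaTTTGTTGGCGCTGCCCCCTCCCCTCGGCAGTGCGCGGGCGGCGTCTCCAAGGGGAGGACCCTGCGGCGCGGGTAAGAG
The annotated genes overlap by 85 bases, and those of Col4a3 and Col4a4, arranged in the same way on chromosome 1, by 114. Reads from such overlaps cannot be told apart without strand.

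The collagen transcripts with the highest average share in this tissue were Col9a3, Col18a1 and Col6a1, none of them a fibrillar chain. Levels between genes are given as deposited TPM, which corrects for transcript length and library size. Summed over all 43 genes, collagen TPM was 182, 210 and 152 in stress replicates 1 to 3, 168, 198 and 199 in enriched replicates 1 to 3 and 145, 181 and 184 in control replicates 1 to 3. The 3 groups overlapped. Averaged over the 9 libraries, the fibrillar class held 21.1% of collagen TPM, the basement membrane class 24.6% and the other collagens 54.3%. Over libraries the fibrillar share ranged from 18.8% to 26.1% and the basement membrane share from 21.2% to 28.0%, so the order of these classes is not fixed. These shares rest on the 65535 transcript rows of the deposited table, which may be incomplete, and they leave out the fibrillar chain Col5a2.

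Among single genes, Col9a3, a chain of collagen IX, which decorates cartilage fibrils, held 14.3% of collagen TPM (9.32% to 19.5% over libraries). Col18a1, the basement membrane proteoglycan from which endostatin is cut, held 13.2% (8.80% to 18.5%). Col6a1, a chain of the beaded filaments around vessels and nerves, held 9.86% (5.70% to 14.2%). Next came Col1a2 at 7.80%, Col9a2 at 5.91% and Col4a1 at 4.99%, and these 6 genes together made up 50.02% to 60.65% of collagen TPM in every library. The shares of Col9a3 and Col18a1 overlap over libraries, so their order is not fixed by these data. The leading fibrillar chain, Col1a2, was 1.996 to 4.147 times as high as its partner Col1a1 in TPM, and 4.36 to 8.21 times as high as Col3a1. Lowest were Col6a4, Col6a5, Col6a6, Col10a1 and Col4a6, the 5 genes that did not pass the filter. Col4a6 had 29, 0 and 0 reads in stress, 0, 0 and 0 in enriched and 0, 0 and 32 in control libraries, and the other 4 had at most 15 reads in any library.

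**Figure D1:**
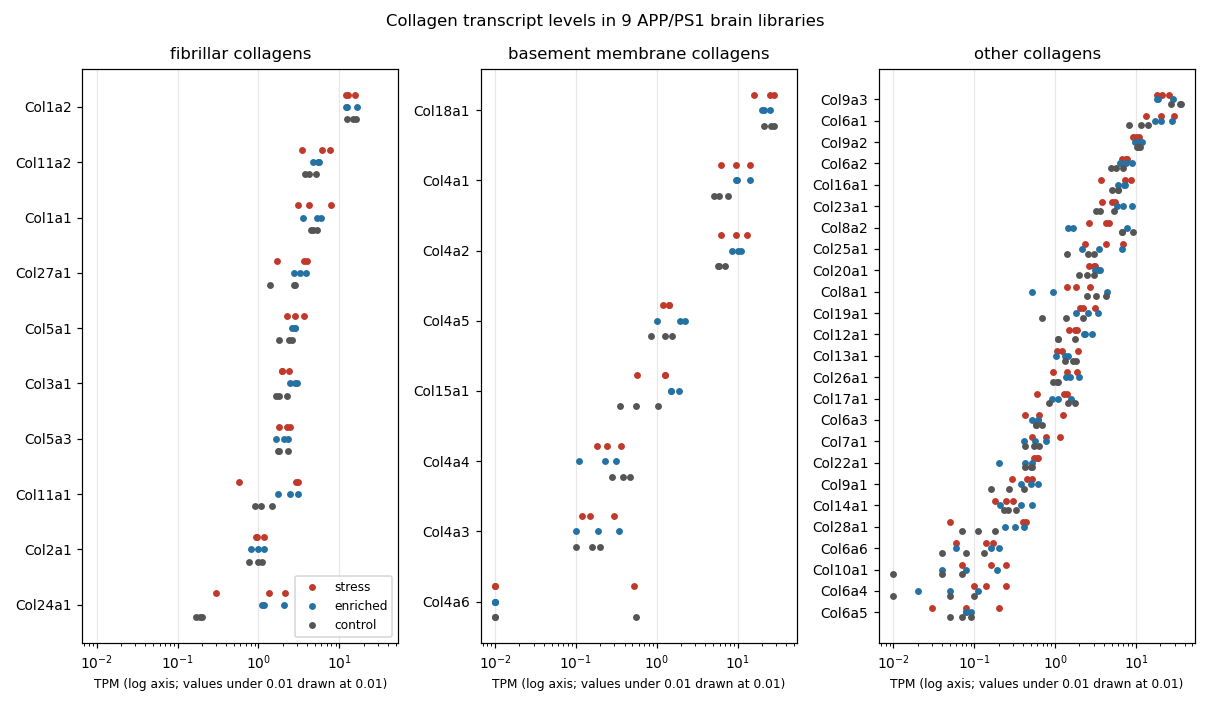
Deposited TPM (x axis, log scale) of the 43 collagen genes, split by class, with 1 point per library: stress in red, enriched in blue, control in grey. Col1a2, Col18a1 and Col9a3 are the highest genes of their classes, the 3 groups overlap for most genes, and the control points of Col24a1 lie apart at the low end.

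The comparison of stress with standard housing asks how exposure to stress relates to the matrix genes of vessels and meninges. Col24a1, a fibrillar collagen known from embryonic bone in mice, had the highest fold of the collagens, Col6a1 was higher in all 3 stress libraries than in any control, and Col9a3 was lower in all 3. The vascular pair Col4a1 and Col4a2 was higher on average, with overlapping groups. The fibroblast chains Col1a1, Col1a2 and Col3a1 had log2 fold changes within 2 SE of 0. By the quasi-likelihood test of edgeR with Benjamini-Hochberg adjustment, 0 of the 38 collagens passed an adjusted p of 0.05, as did 0 of all 14694 genes (0% called), and the smallest adjusted p of a collagen was 0.546. At an unadjusted p under 0.05 there were 4 collagens (10.5%, against 7.98% of all genes tested), of which 3 were higher (4.20% of all genes) and 1 lower (3.78%). The 4 were Col24a1, Col6a1 and Col4a2 (higher) and Col9a3 (lower). The count was 2 without stress replicate 2 (2.65% of all genes) and 12 without stress replicate 3 (20.8% of all genes), and DESeq2 counted 9, against 8.79% of all genes. With that code letter added to the model the count was again 4, while the share of all genes came to 24.5%.

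Col24a1 (gene 71355, chromosome 3, 145292472 to 145552013 on GRCm38.p6) had 4.43, 7.14 and 1.16 CPM in the 3 stress libraries (replicates 1 to 3), against 0.72, 0.72 and 0.67 CPM in the controls. Stress replicate 3 lay far below the other stress libraries but still above every control. These values rest on 73, 116 and 19 reads in stress and 12, 12 and 11 reads in control libraries. The log2 fold change was 2.58 ± 0.58 (SE, unadjusted p = 0.00138 by edgeR), which ranked Col24a1 11th of all genes by p. DESeq2 with Benjamini-Hochberg adjustment called it at an adjusted p of 0.025, among 7 genes called in all (0.0476%). Over all 17 alternatives its adjusted p ranged from 0.025 to 0.971 and its log2 fold change from 1.94 to 3.02. The gene has 5 transcripts with a row of 6 annotated, and 1 of them held its reads in most libraries, while in enriched replicate 2 that transcript was at 0 TPM and another held the reads.

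Col6a1 (gene 12833, chromosome 10, 76708792 to 76726044) stood at 39.9, 56.8 and 28.7 CPM in stress libraries, against 20.5, 24.7 and 28.0 CPM in controls. The lowest stress value, in replicate 3, was only just above the highest control. Its log2 fold change was 0.78 ± 0.25 (SE, unadjusted p = 0.0125). Its partner Col6a2 was at 11.96, 13.35 and 15.88 CPM in stress, 12.3, 13.2 and 15.9 CPM in enriched and 13.3, 9.66 and 12.9 CPM in control libraries. The other partner, Col6a3, was at 5.40, 2.83 and 2.02 CPM in stress, 2.88, 2.56 and 2.26 CPM in enriched and 3.74, 2.72 and 2.60 CPM in control libraries. Both partners had overlapping groups and smaller log2 fold changes in stress, of 0.20 ± 0.17 for Col6a2 and 0.18 ± 0.34 for Col6a3 (SE). The TPM ratio of Col6a1 to Col6a2 averaged 2.92 ± 1.15 in stress and 1.95 ± 0.47 in control libraries (SD, n = 3 each), and the ratios of the groups overlapped.

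Col9a3 (gene 12841, chromosome 2, 180598102 to 180622192) was at 24.1, 34.2 and 32.2 CPM in stress and 46.1, 51.7 and 49.4 CPM in control libraries. Every stress library lay below every control, and the log2 fold change was -0.70 ± 0.18 (SE, unadjusted p = 0.0031). Its partner Col9a2 had 14.1, 12.7 and 13.4 CPM in stress libraries, against 17.07, 16.001 and 14.34 CPM in controls, again without overlap, at a log2 fold change of -0.24 ± 0.13. Col9a3 shares 237 annotated bases with the gene Tcfl5, so some reads could belong to either. Counting all 38 tested collagens, 3 had every stress library above every control (Col6a1, Col12a1 and Col24a1) and 5 had every stress library below (Col4a4, Col8a1, Col8a2, Col9a2 and Col9a3), which is 21.1% of them. Over all genes tested, 5.19% lay above and 4.65% below in this way, 9.84% together.

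Among the chains of the basement membrane, Col4a1 was at 31.0, 46.9 and 23.0 CPM in stress libraries, against 21.8, 27.7 and 20.3 CPM in controls. Col4a2 followed it, at 30.7, 41.3 and 22.4 CPM in stress and 24.1, 25.2 and 19.6 CPM in control libraries. In both genes stress replicate 2 was highest and stress replicate 3 lay within the control range. The log2 fold changes were 0.53 ± 0.25 for Col4a1 (SE, unadjusted p = 0.0615) and 0.45 ± 0.20 for Col4a2 (SE, unadjusted p = 0.0481). The TPM of Col4a1 over that of Col4a2 stayed between 0.883 and 1.30 in all 9 libraries. Col18a1 had 40.7, 62.2 and 80.7 CPM in stress and 69.9, 78.7 and 66.9 CPM in control libraries, so the stress libraries lay on both sides of the controls, with a log2 fold change of -0.23 ± 0.21.

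Of the fibrillar chains, Col1a1 was at 23.3, 8.92 and 13.9 CPM in stress and 16.9, 17.3 and 14.5 CPM in control libraries. Col1a2 was at 40.7, 32.4 and 35.0 CPM in stress and 41.3, 45.8 and 40.1 CPM in control libraries. Col3a1, a fibrillar chain of vessel walls, was at 6.50, 5.29 and 6.05 CPM in stress and 5.91, 6.94 and 5.20 CPM in control libraries. All 3 genes had overlapping groups, and stress libraries differed more among themselves for Col1a1 than for the other 2. Their log2 fold changes were -0.08 ± 0.32, -0.23 ± 0.14 and -0.02 ± 0.18 for Col1a1, Col1a2 and Col3a1 (SE). Col11a2, a chain of cartilage fibrils, had overlapping values of 22.3, 17.5 and 11.1 CPM in stress and 15.9, 16.7 and 11.1 CPM in control libraries. Col25a1, a neuronal transmembrane collagen whose shed part is found in amyloid plaques, was at 25.8, 16.1 and 9.89 CPM in stress and 6.63, 12.4 and 9.86 CPM in control libraries. Its groups overlapped, and its log2 fold change was 0.84 ± 0.43 (SE, unadjusted p = 0.0789).

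By class, the median log2 fold change between stress and control was 0.11 over the 10 fibrillar collagens, 0.20 over the 7 tested basement membrane collagens and 0.15 over the 21 other collagens tested, beside 0.02 over all genes. Log2 fold changes were above 0 for 24 of the 38 collagens and below 0 for 14, and they were above 0 for 52.3% of all genes. The fibrillar and the other medians turned to -0.05 and -0.06 once each library's trend of counts with transcript length was removed.

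**Figure D2:**
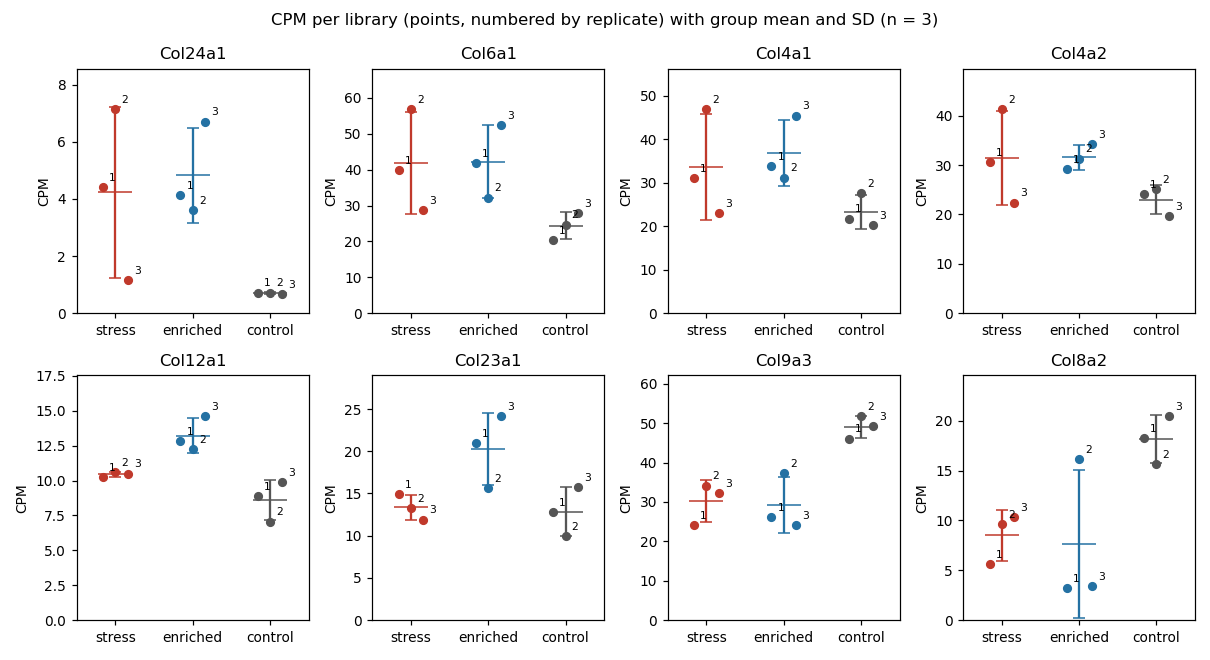
CPM of 8 collagen genes in each library (points numbered by replicate), with the group mean as a horizontal bar and the SD as a vertical one (n = 3), for stress, enriched and control groups. The 3 control points of Col24a1 sit at 0.67 to 0.72 CPM, below every stress and enriched point, those of Col9a3 sit above every other point, and Col8a2 in enriched replicate 2 lies far above enriched replicates 1 and 3.

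The comparison of enriched with standard housing asks how an enriched environment relates to the same genes. Col24a1, Col6a1, Col12a1 and the pair Col4a1 and Col4a2 were higher in all 3 enriched libraries than in any control, and Col9a3 was lower in all 3. By the quasi-likelihood test of edgeR with Benjamini-Hochberg adjustment, 0 of 38 collagens and 0 of all genes passed (0% called), and the smallest adjusted p of a collagen was 0.236. At an unadjusted p under 0.05 there were 11 collagens (28.9%, against 20.4% of all genes), 8 higher (9.93% of all genes) and 3 lower (10.4%). The 8 were Col4a1, Col4a2, Col6a1, Col11a1, Col12a1, Col15a1, Col23a1 and Col24a1, and the 3 were Col4a4, Col8a2 and Col9a3. The count was 7 without control replicate 1 (6.91% of all genes), 6 without control replicate 3 (36.2% of all genes) and 5 without enriched replicate 3 (6.84% of all genes), and DESeq2 counted 12, against 22.2% of all genes. Without control replicate 3 the collagens thus lay below the share of all genes. With the code letter in the model the count was 7, against 6.84% of all genes. The controls are those of the stress comparison, so the values of both comparisons are not independent of each other.

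Col24a1 was at 4.13, 3.63 and 6.71 CPM in enriched libraries, against the control values of 0.72, 0.72 and 0.67 CPM. No enriched library came near the controls, and all 3 stood at 61 reads or more, against 12 reads or fewer in each control. The log2 fold change was 2.76 ± 0.58 (SE, unadjusted p = 0.000845 by edgeR), and DESeq2 with Benjamini-Hochberg adjustment gave an adjusted p of 0.00523 (0.00523 to 0.698 over the 17 alternatives). Col9a3 had 26.1, 37.3 and 24.2 CPM in enriched libraries and 46.1, 51.7 and 49.4 CPM in controls, a log2 fold change of -0.75 ± 0.18 (SE, unadjusted p = 0.00209 by edgeR). DESeq2 placed Col9a3 past the threshold at an adjusted p of 0.0468 (0.0468 to 0.698 over the 17 alternatives), and over all genes DESeq2 called 40 (0.272%).

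Col12a1 (gene 12816, chromosome 9, 79598987 to 79721141), a fibril-associated collagen that binds collagen I, was at 12.8, 12.2 and 14.6 CPM in enriched libraries, against 8.87, 7.06 and 9.92 CPM in controls. The groups did not overlap, and the log2 fold change was 0.62 ± 0.15 (SE, unadjusted p = 0.00225). Col6a1 was at 41.8, 32.2 and 52.5 CPM in enriched libraries, against 20.5, 24.7 and 28.0 CPM in controls, also without overlap (0.79 ± 0.25 on the log2 scale, SE). Col23a1, a transmembrane collagen, was at 21.0, 15.6 and 24.1 CPM in enriched and 12.8, 9.96 and 15.7 CPM in control libraries. Its groups overlapped narrowly, with enriched replicate 2 just under control replicate 3, and its log2 fold change was 0.66 ± 0.20 (SE, unadjusted p = 0.00931). Without control replicate 3, the quasi-likelihood test of edgeR with Benjamini-Hochberg adjustment called Col12a1 (adjusted p = 0.0416), Col23a1 (adjusted p = 0.0458) and Col24a1 (adjusted p = 0.0471), when 1586 genes were called in all. Over the 17 alternatives, the largest adjusted p of edgeR or the other tools was 0.698 for Col12a1 and 0.728 for Col23a1.

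Col4a1 was at 33.8, 31.2 and 45.5 CPM in enriched libraries and 21.8, 27.7 and 20.3 CPM in controls. Col4a2 was at 29.2, 31.3 and 34.2 CPM in enriched and 24.1, 25.2 and 19.6 CPM in control libraries. Neither gene had overlapping groups, with log2 fold changes of 0.66 ± 0.25 for Col4a1 (SE, unadjusted p = 0.0257) and 0.46 ± 0.20 for Col4a2 (SE, unadjusted p = 0.0458). Col15a1, a basement membrane collagen related to Col18a1, had 3.89, 3.57 and 4.52 CPM in enriched and 3.20, 1.51 and 0.85 CPM in control libraries, at a log2 fold change of 1.11 ± 0.43. Col18a1 went the other way, with 54.0, 61.9 and 51.9 CPM in enriched libraries and 69.9, 78.7 and 66.9 CPM in controls. All its enriched libraries lay below the controls, and the log2 fold change was -0.36 ± 0.21 (SE, unadjusted p = 0.113).

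The paired chains of collagen VIII, a short-chain network collagen known from the cornea and from vessel walls, split the enriched group. Col8a2 was at 3.23, 16.2 and 3.39 CPM in enriched replicates 1 to 3 and 18.3, 15.6 and 20.5 CPM in controls. Col8a1 was at 1.38, 10.6 and 2.32 CPM in the same enriched libraries and 8.021, 8.997 and 11.13 CPM in controls. Enriched replicate 2 lay within the control range for both genes and the other 2 enriched libraries far below it. In stress libraries, Col8a2 was at 5.59, 9.60 and 10.3 CPM and Col8a1 at 4.55, 6.71 and 4.03 CPM, all below the controls. The log2 fold change of Col8a2 was -1.09 ± 0.54 in stress and -1.25 ± 0.54 in enriched mice against controls (SE), and that of Col8a1 was -0.88 ± 0.59 in stress and -0.98 ± 0.59 in enriched mice. Without enriched replicate 2, the quasi-likelihood test of edgeR with Benjamini-Hochberg adjustment called both in the enriched comparison, Col8a2 at -2.45 (adjusted p = 0.0226) and Col8a1 at -2.34 (adjusted p = 0.0328), among 33 genes in all. Without enriched replicates 1 and 3 the log2 fold change was -0.17 for Col8a2 and 0.17 for Col8a1, and over the 17 alternatives the adjusted p of both reached 0.859. The TPM of Col8a2 stayed between 1.45 and 3.06 times that of Col8a1 in every library.

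Summed choroid plexus transcripts moved with the collagen VIII pair and with Col9a3. The summed CPM of 11 choroid plexus markers, Ttr among them, was 683, 2074 and 1919 in stress, 223, 2981 and 211 in enriched and 3978, 3871 and 4901 in control libraries. The 2 enriched libraries with low Col8a2 and low Col9a3 are thus those lowest in choroid plexus markers. Ttr alone was at 3121, 2939 and 3566 CPM in controls, so it dominates their sum. All 11 markers had log2 fold changes below 0 in both comparisons with controls. Aqp1 did not drop in enriched replicates 1 and 3, at 18.4, 16.2 and 16.4 CPM in enriched and 17.3, 12.1 and 25.0 CPM in control libraries. Of the 11 markers, Folr1 was at 0 in enriched replicate 3, and the other 10 were detected in every library. The part of this tissue in the collagen values was not tested.

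The fibrillar collagens of fibroblasts had log2 fold changes within 2 SE of 0 in enriched mice too. Col1a1 was at 18.75, 14.98 and 10.35 CPM and Col1a2 at 33.9, 41.6 and 30.7 CPM in enriched libraries, at log2 fold changes of -0.14 ± 0.32 and -0.26 ± 0.14 against controls (SE). Col3a1 was at 8.33, 8.03 and 6.52 CPM in enriched libraries, with a log2 fold change of 0.34 ± 0.18 (SE, unadjusted p = 0.081). Its 2 highest values among the 9 libraries were enriched ones. Col11a2 had 17.2, 13.6 and 15.4 CPM, Col9a2 14.7, 12.4 and 14.9 CPM and Col25a1 8.63, 12.6 and 24.1 CPM in enriched libraries, all overlapping the controls. The log2 fold change of Col25a1 was 0.65 ± 0.43 (SE, unadjusted p = 0.163). Col25a1 has 32 transcripts with a row, of which the most abundant held 2.34% to 25.9% of its TPM, so its value sums many small estimates.

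The remaining 17 tested collagens can be given by class. The 5 other fibrillar chains had log2 fold changes of -0.0045 to 0.93 in stress and -0.16 to 1.03 in enriched mice against controls. The top of both ranges was Col11a1, which helps to set the width of cartilage fibrils, at 9.412, 7.9997 and 2.199 CPM in stress, 7.37, 5.11 and 8.47 CPM in enriched and 3.20, 4.29 and 2.78 CPM in control libraries. All its enriched libraries, and 2 of 3 stress libraries, lay above the controls. In mean log2 CPM over 7 tested cartilage and bone markers relative to the control mean, stress libraries stood at 0.34, 0.27 and -0.29, enriched libraries at 0.31, 0.19 and 0.25 and controls at 0.12, -0.06 and -0.06. Stress replicate 3 was the lowest stress library for these markers, as it was for Col11a1 and Col24a1. It was also the lowest stress library in this mean over all tested collagens (-0.11), meningeal fibroblast markers (-0.35) and mural cell markers (0.29), but not over endothelial markers. Comp, unlike the other cartilage and bone markers, was highest there, at 1.94, 3.26 and 5.13 CPM in stress replicates 1 to 3. The part of cartilage and bone cells in the collagen values was not tested. Of the 7 markers, 0 in stress (beside 7.98% of all genes) and 1 in enriched mice (14.3%, beside 20.4%) had an unadjusted p under 0.05. The 3 other type IV chains, Col4a3, Col4a4 and Col4a5, which form the network of the kidney filter, lay between -0.64 and 0.20 in stress and between -0.90 and 0.31 in enriched mice. The lowest in both was Col4a4, at 0.92 to 1.48 CPM in stress, 0.54 to 1.37 CPM in enriched and 1.69 to 2.06 CPM in control libraries. The 9 remaining collagens of the other families lay between -0.38 and 1.19 in stress and between -0.44 and 1.35 in enriched mice, and the highest in both was Col28a1, with only 2 to 16 reads in a library. Col19a1, which takes part in synapse formation in mice, was next, at 11.2, 17.1 and 14.3 CPM in stress, 10.9, 13.9 and 18.1 CPM in enriched and 5.25, 8.76 and 13.1 CPM in control libraries, with groups that overlapped.

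The median log2 fold change between enriched and control was 0.09 over fibrillar, 0.31 over basement membrane and 0.21 over other collagens, beside 0.02 over all genes tested, and it was above 0 for 23 of 38 collagens and 51.7% of all genes. Of the 38, 9 had every enriched library above every control (12.5% of all genes), namely 7 of those already named (Col4a1, Col4a2, Col6a1, Col11a1, Col12a1, Col15a1 and Col24a1) with Col20a1 and Col28a1. In 4 every enriched library lay below (Col4a4, Col9a3, Col13a1 and Col18a1, 13.6% of all genes), which is 34.2% of the collagens against 26.1% of all genes. With the trend on transcript length removed, the class medians came to -0.18 for fibrillar, 0.07 for basement membrane and -0.03 for other collagens. Without enriched replicates 1 and 3, which stand apart by their choroid plexus and olfactory transcripts, 1 collagen was left at an unadjusted p under 0.05 instead of 11, and the share of all genes was 3.03% instead of 20.4%. The mean log2 CPM of 8 olfactory mucosa markers stood at 1.57 and 1.76 above the control mean in enriched replicates 1 and 3, against 0.36 in enriched replicate 2. Of these markers, 6 had log2 fold changes above 0 in enriched mice against controls and 2, Adcy3 and Gng13, below. Summed CPM over the 9 listed olfactory genes with a row was not raised. It was 327, 228 and 310 in enriched and 384, 318 and 315 in control libraries.

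**Figure D3:**
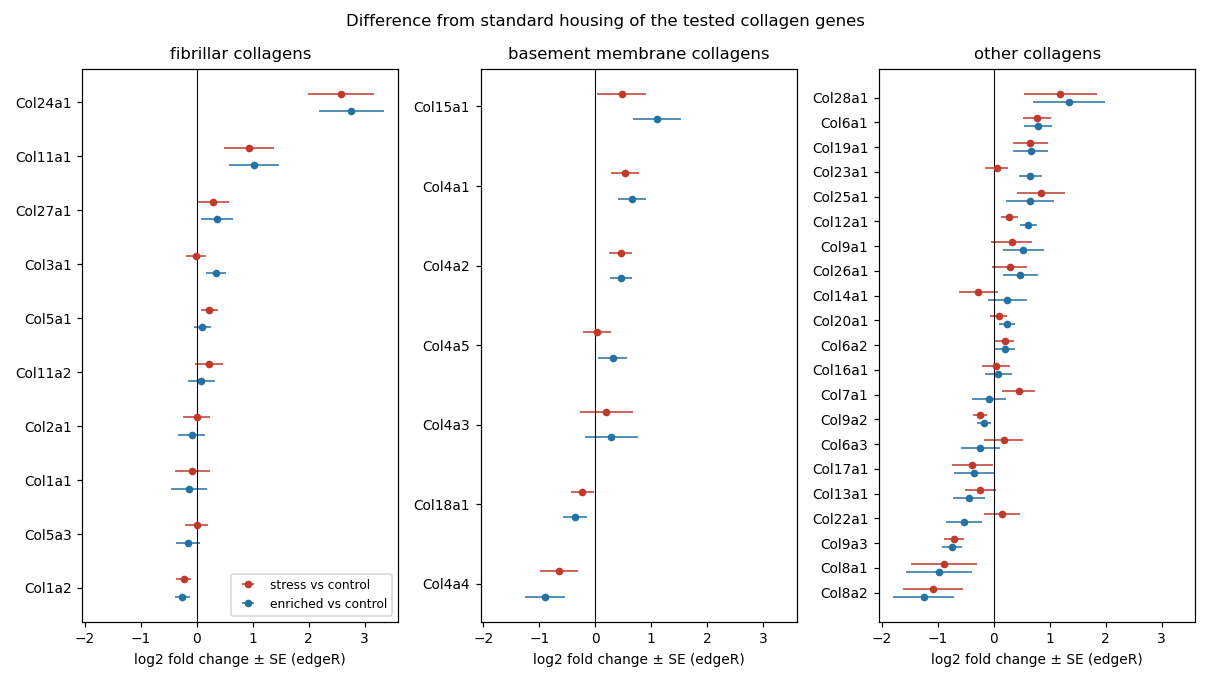
Log2 fold change of the 38 tested collagens (x axis, points with bars of 1 SE from edgeR), split by class, for stress against control in red and enriched against control in blue. Col24a1 lies farthest to the right at 2.58 and 2.76, Col8a2 farthest to the left at -1.09 and -1.25, and both comparisons share the 3 control libraries.

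The comparison of stress with enriched mice sets the 2 non-standard conditions against each other, and the controls enter only through the shared estimate of the spread. By the quasi-likelihood test of edgeR with Benjamini-Hochberg adjustment, 0 of 38 collagens and 0 of all genes were called (0% called), with a smallest adjusted p of 0.999. At an unadjusted p under 0.05 there were 2 collagens, Col23a1 and Col12a1 (5.26%, against 2.64% of all genes), both lower in stress (1.40% of all genes). Leaving out stress replicate 2, control replicate 1 or enriched replicate 3 gave a count of 1 (at most 3.39% of all genes) and leaving out enriched replicate 2 a count of 4 (2.99%), and DESeq2 counted 1, against 2.63% of all genes. Col23a1 was at 14.9, 13.2 and 11.9 CPM in stress and 21.0, 15.6 and 24.1 CPM in enriched libraries, a log2 fold change of -0.60 ± 0.20 (SE, unadjusted p = 0.0148). Col12a1 was at 10.3, 10.6 and 10.5 CPM in stress and 12.8, 12.2 and 14.6 CPM in enriched libraries, at -0.34 ± 0.15 (SE, unadjusted p = 0.0471). The stress libraries lay below all enriched ones for both genes.

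Col22a1, a collagen of tissue junctions such as that of muscle and tendon, was at 1.88, 1.78 and 1.89 CPM in stress and 0.66, 1.55 and 1.25 CPM in enriched libraries (log2 fold change 0.68 ± 0.33, SE). Its controls, at 1.99, 1.69 and 1.33 CPM, overlapped both groups. Col7a1, which forms the anchoring fibrils of skin, was at 3.58, 5.35 and 2.69 CPM in stress, 2.04, 2.56 and 3.45 CPM in enriched and 2.53, 3.32 and 2.66 CPM in control libraries. Here the stress and enriched libraries overlapped, at a log2 fold change of 0.53 ± 0.30 (SE). Col3a1 was lower in all stress than in all enriched libraries, at -0.36 ± 0.18 on the log2 scale (SE, unadjusted p = 0.0687). For 4 genes with small p-values against the controls the groups overlapped here, and the log2 fold change between stress and enriched was -0.18 ± 0.50 for Col24a1, -0.01 ± 0.25 for Col6a1, -0.13 ± 0.25 for Col4a1 and 0.05 ± 0.18 for Col9a3 (SE). Class medians were 0.05 for fibrillar, -0.08 for basement membrane and -0.01 for other collagens. In all, 1 collagen had every stress library above every enriched one (5.06% of all genes) and 4 below (5.42%), which is 13.2% of the collagens against 10.5% of all genes.

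Genes that make, hold and cut collagen showed no adjusted call in any of the 3 comparisons by edgeR. Of 27 tested enzymes and chaperones of collagen synthesis, 11 had a log2 fold change above 0 and 16 below in stress against control, with a median of -0.18, and 13 lay above and 14 below in enriched against control, with a median of -0.10. At an unadjusted p under 0.05, 0 were higher and 3 lower in stress, and 2 were higher and 4 lower in enriched mice. These are 11.1% and 22.2% of the list, beside 7.98% and 20.4% of all genes. Pcolce, which speeds the removal of the procollagen end piece, was at 13.8, 17.9 and 15.8 CPM in stress, 12.6, 16.6 and 12.2 CPM in enriched and 27.3, 27.4 and 26.0 CPM in control libraries. Every stress and enriched library was far below every control. Its log2 fold change was -0.76 ± 0.15 in stress and -0.96 ± 0.15 in enriched mice (SE, unadjusted p = 0.00046 and 7.93e-05). DESeq2 with Benjamini-Hochberg adjustment called Pcolce in both, at adjusted p = 0.0241 and 5.28e-05, while over the 17 alternatives its adjusted p reached 0.971 and 0.698. Ppib, a prolyl isomerase of the endoplasmic reticulum, had log2 fold changes of -0.45 ± 0.16 and -0.49 ± 0.16, and P3h3, a prolyl hydroxylase family member, of -0.27 ± 0.12 and -0.40 ± 0.12 in stress and in enriched mice (SE).

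Of 14 laminins and other basement membrane partners of type IV collagen, 11 were above 0 in stress and 10 in enriched mice against controls, with medians of 0.18 and 0.23. In the enriched comparison 6 of the 14 had an unadjusted p under 0.05, of which 4 were higher and 2 lower (42.9%, beside 20.4% of all genes). Nid1, a nidogen that links laminin to collagen IV, was at 13.7, 11.8 and 17.6 CPM in enriched and 6.15, 7.37 and 8.71 CPM in control libraries, without overlap (log2 fold change 0.95 ± 0.24, SE). Lama4, the laminin chain of vessel walls, differed by 0.77 ± 0.25 and the collagen-binding Sparc by -0.45 ± 0.16 on the log2 scale (SE). In the stress comparison 1 partner, Fn1 (fibronectin), had an unadjusted p under 0.05, at 0.61 ± 0.25 (SE), which is 7.14% of the list beside 7.98% of all genes.

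Of 9 tested collagen receptors, 0 in stress (beside 7.98% of all genes) and 1 in enriched mice (11.1%, beside 20.4%) had an unadjusted p under 0.05. That 1 was the integrin chain Itga1 at 0.80 ± 0.35 (SE). Among 7 tested collagenases and their inhibitors, 2 had such a p in stress (28.6%, beside 7.98% of all genes) and 0 in enriched mice (beside 20.4%). DESeq2 called 0 of either list. The 2 of the stress comparison were the membrane-bound Mmp14 at -0.29 ± 0.09 and the neutrophil collagenase Mmp8 at 1.59 ± 0.66 (SE).

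Vessel markers were higher on average in the groups where Col4a1 and Col4a2 were, while Col4a4 had log2 fold changes below 0 in both. All 12 endothelial markers had a log2 fold change above 0 in stress and in enriched mice against controls, with medians of 0.86 and 0.68. Of these, 6 in stress (beside 7.98% of all genes) and 3 in enriched mice (beside 20.4% of all genes) had an unadjusted p under 0.05. In mean log2 CPM over these 12 genes relative to the control mean, stress replicates 1 to 3 stood at 0.32, 1.56 and 0.38 and enriched replicates 1 to 3 at -0.08, 0.90 and 0.86. Stress replicate 2, the highest, is also the library with the most Col4a1 and Col4a2. Enriched replicate 1, at the control level for endothelium, had more Col4a1 and Col4a2 than any control. Of 12 mural cell markers, 12 were above 0 in stress and 9 in enriched mice, with medians of 0.39 and 0.17. No endothelial marker was at 0 in any library, and of the mural markers Abcc9 was at 0 in 4 libraries and the other 11 in none. The summed CPM of the 12 mural markers was 290 to 391 in stress, 231 to 352 in enriched and 202 to 287 in control libraries. The part of vessel cells in the collagen values was not tested.

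Meningeal fibroblast markers had fold changes nearer to 0. Of 15 such genes, 9 in stress and 11 in enriched mice lay above 0, with medians of 0.06 and 0.08, and 0 in stress and 4 in enriched mice (26.7%, beside 20.4% of all genes) had an unadjusted p under 0.05. Of the 4, 3 were higher and 1 lower. The 3 smallest p-values in enriched mice belonged to the small proteoglycans Bgn at 0.59 ± 0.15 and Dcn at 0.27 ± 0.11 and to Islr at 0.63 ± 0.23 (SE).

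The trend of counts with transcript length also differed between libraries, with overlap between the stress and control groups. Length was derived from these data, as a gene's summed estimated counts over its summed TPM. Relative to the mean of all libraries, log2 CPM changed per doubling of this length by 0.04, 0.07 and -0.07 in stress, 0.03, 0.09 and 0.10 in enriched and -0.21, -0.07 and 0.02 in control libraries. Col24a1, Col6a1 and Col9a3 kept log2 fold changes of 2.39, 0.71 and -0.71 in stress and 2.51, 0.69 and -0.74 in enriched mice with this trend removed. The fold change of Col12a1 in enriched mice came down to 0.27, that of Col4a1 to 0.40 and that of Col4a2 to 0.20.

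**Figure D4:**
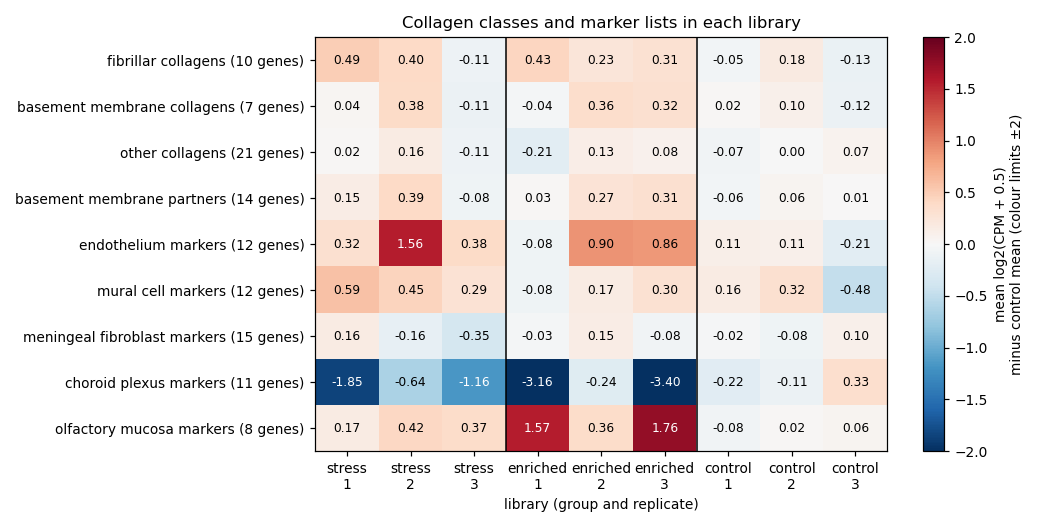
Mean log2(CPM + 0.5) of each collagen class and marker list in each library, minus the control mean (colour, with the value printed, red for higher and blue for lower). Endothelial markers are highest in stress replicate 2 at 1.56, choroid plexus markers are lowest in enriched replicates 1 and 3 at -3.16 and -3.40, and the collagen classes stay between -0.21 and 0.49.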

How the data were processed

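RNA was sequenced from brain tissue of 9 APP/PS1 mice in 3 groups of 3, taken from the group field of the labels. Per the labels' protocols, mRNA was bound to oligo(dT) beads, copied with random hexamers and sequenced as DNA nanoballs, with no molecular identifiers or strand marking described. Tools named in the submitters' processing notes, with no roles given, are RSEM 1.2.12, HISAT2 2.0.4 and Bowtie2 2.2.5, and the build is GRCm38.p6. The authors deposited, for 65535 RefSeq transcripts, an estimated count (56.5% of the values are not whole numbers), a TPM and an FPKM. The FPKM columns deposited by the authors were not used. For 23 of the 43 collagens every annotated coding transcript has a row, and for the other 20 a shift to a transcript not analysed here would look like a changed gene. Reads that fit several transcripts are split by estimation.

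Estimated counts were summed per gene and rounded. Symbols came from RefSeq (GRCm38.p6), and 18398 of 18450 gene identifiers matched. In R 4.3.3, edgeR 4.0.16 kept 14694 genes (filterByExpr, minimum count 10, minimum total 15), scaled libraries by TMM and fitted 1 quasi-likelihood model (robust) to all 9 libraries, with 6 residual degrees of freedom. Benjamini-Hochberg adjustment covered every tested gene, and the threshold was 0.05. Standard errors (SE) come from the F statistic. CPM served within a gene and the deposited TPM between genes. In place of an annotated transcript length, each gene's estimated counts over its TPM, both summed over the 9 libraries, were used. Fitting was tested on simulated data. Alternatives were DESeq2 1.42.0, limma 3.58.1 on log2(TPM + 0.1), RLE scaling, no filter, only the groups compared, the animal code's letter as covariate, removal of a length trend, and leaving out libraries. Promoter windows came from RefSeq on GRCm38.p6, matched by symbol for 35 collagens.

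The collagens and the gene lists were chosen with earlier results of these data known. Values in every library are given for the 5 collagens with the smallest p in each comparison, for Col1a1, Col1a2, Col3a1, Col4a1, Col4a2, Col18a1 and Col25a1, for the 3 highest by TPM in each class, and for the partner chains of Col6a1 and Col9a3. Col4a4, Col8a1, Col8a2, Col11a1, Col15a1, Col19a1 and Col28a1 were singled out after their values were seen. Of the other lists, fold changes are given for at most the 3 genes with the smallest p in a comparison, and further list genes are named as examples or as listed at 0. Aqp1, Comp, Ttr, Adcy3 and Gng13 were named after their values were seen. Replicate numbers follow accession order and pair no animals.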

Additional observations from a re-analysis of the deposited data

How the results depend on the processing

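No paired analysis was possible because the labels carry no replicate numbers, and those used here are only accession order. In stress against control, DESeq2 called 1 collagen where edgeR called 0, and counted 9 at an unadjusted p under 0.05 where edgeR counted 4. Of all genes, DESeq2 called 0.0476% and edgeR 0%, and 8.79% and 7.98% had such an unadjusted p. Leaving out single libraries moved the edgeR count between 2 (without stress replicate 2, 2.65% of all genes) and 12 (without stress replicate 3, 20.8% of all genes). In enriched against control, DESeq2 called 2 (beside 0.272% of all genes), and leaving out single libraries gave 0 to 3 called. The 3 came without control replicate 3, where 1586 of 14853 genes were called. The count of 11 at an unadjusted p under 0.05 came to 7 with the animal code's letter as covariate, to 1 without both enriched replicates 1 and 3 (an alternative chosen after seeing the data) and to between 5 (without enriched replicate 3) and 12 without single libraries. In stress against enriched, the count of 2 came to 1 with DESeq2, with limma and with no filter, and to between 1 and 4 without single libraries.

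Removing the length trend moved the stress medians to -0.048 (fibrillar) and -0.058 (other), and the enriched medians to -0.18 (fibrillar), 0.067 (basement membrane) and -0.026 (other). With limma on log2(TPM + 0.1), which shifts the median of all genes by 0.14 in stress and 0.19 in enriched mice against controls, the enriched fibrillar median was 0.27. With the letter as a covariate, the stress against enriched medians were 0.19 (basement membrane) and 0.18 (other). Only the controls hold both letters (C in 1 mouse, D in 2), so the letter's effect is set by them alone. All values with the letter thus hang on control replicate 1, the control with C. Without single libraries, the enriched against control medians ranged from 0.11 to 0.53 (basement membrane) and from 0.074 to 0.27 (other), and the stress against enriched medians from -0.15 to 0.16 (fibrillar) and from -0.16 to -0.0046 (other).

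Of 59 fold changes of named genes, each under 17 alternatives, 960 values kept direction and side of the threshold, 14 passed it newly and 29 changed sign. As 0 genes passed the threshold in the main fit, keeping its side says little. Size is not part of this count: Col8a2 in enriched mice kept its direction while going from -1.25 to -0.17 without enriched replicates 1 and 3. Beside the collagen calls already given, DESeq2 newly called Pcolce in both comparisons with controls, and in enriched against control edgeR with Benjamini-Hochberg adjustment called Pcolce (adjusted p = 0.0412), Ppib (0.0494) and Nid1 (0.0458) without control replicate 3 and Pcolce (0.0226) without enriched replicate 2.

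In stress against control, Col3a1 was at 0.12 with limma and at 0.0086 with the letter, and ranged from -0.11 to 0.10 without single libraries, where Col1a1 ranged from -0.51 to 0.20. Col6a3 was at -0.13 with the letter and at -0.058 without the length trend, and ranged from -0.32 to 0.45 without single libraries. In enriched against control, Col1a1 was at 0.0023 with limma and ranged from -0.37 to 0.054 without single libraries, and Col8a1 was at 0.17 without both enriched replicates 1 and 3. In stress against enriched, Col6a1 was at 0.35 and Col4a1 at 0.010 with the letter, and Col6a1 at 0.014 without the length trend. Without both enriched replicates 1 and 3, Col24a1 was there at 0.23, Col6a1 at 0.38, Col4a1 at 0.11 and Col9a3 at -0.30. Without single libraries Col24a1 ranged from -0.78 to 0.26, Col6a1 from -0.30 to 0.20, Col4a1 from -0.45 to 0.081 and Col9a3 from -0.073 to 0.26. The cause of these shifts was not tested. With 3 mice a group, and 11 to 12 reads of Col24a1 in a control library, folds of low collagens are imprecise.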
